A study of Mus musculus with 4 samples.

Results

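Among cells dissociated from 4 mouse prostate tumours, 634 met a rule that looks for transcripts of the bladder lining: at least 3 of Upk1a, Upk2, Psca, Snx31, Mal and Isl1 with 1 or more unique molecular identifiers (UMIs, each standing for 1 captured transcript), at least 2 UMIs of Upk1a and Upk2 together, and at least 3 UMIs of the epithelial keratin genes Krt8 and Krt18. They are called gated cells here. The rule was applied to barcodes with at least 1000 UMIs, of which at most 20% came from mitochondrial genes. It found 191 and 134 cells in the PCSp mice and 97 and 212 cells in the PSp mice. These are 634 of 12353 cells with the keratin UMIs (epithelial cells below) and of 25542 barcodes past the filters. The members were chosen by measured counts of these 8 genes, so levels of these genes, and of any other gene, in gated cells against the other epithelial cells are a description with no test.

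PCSp mice (n = 2) carry PB-Cre, Chd1L/L and SpopF133V with the reporter mTmG. PSp mice (n = 2) carry PB-Cre, SpopF133V and mTmG. The genotype labels of both groups also hold 1 more allele, the same in both and not reported here, so the floxed chromatin remodeller gene Chd1 is what separates the groups. The Cre is driven by the probasin promoter, which is active in prostate epithelium. All mice were castrated at 9 months and their tumours were taken 1 month later. Each mouse gave 1 library, with between 66874620 and 90839725 UMIs in all. Levels are CPM, UMIs of a gene scaled to a common total, from the summed counts of the cells named, and they are per gene and not per length. They are compared below only within a gene.

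The urothelium lines the bladder, the ureters and the upper urethra, and its surface carries plaques of uroplakins. Uroplakin 1a (Upk1a) and 1b (Upk1b) are tetraspanins that pair with uroplakin 2 (Upk2) and the uroplakin 3 proteins (Upk3a, Upk3b). Snx31 is a sorting nexin of uroplakin turnover, Mal is a raft protein of apical transport, Psca is a surface antigen found on both bladder and prostate epithelium, and Isl1 is a LIM homeobox transcription factor. Krt20 marks the mature umbrella cells of the surface. The prostatic ducts open into the urethra, so a whole prostate can hold urethral or bladder neck epithelium. Upk1a lies at chr7:30603092-30612847, Upk2 at chr9:44452715-44454976, Psca at chr15:74714839-74717069 and Snx31 at chr15:36504062-36555573 on GRCm38, the mm10 build.

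The urothelial label did not describe most gated cells. Of the 634, 479 had exactly 3 of the 6 genes, and 328 (51.7%) had the single combination of Upk1a, Psca and Mal. Upk1a was seen in 633 and Mal in 619 gated cells, but Upk2 in 200, Snx31 in 127 and Isl1 in 63. Meeting the rule tracked the number of UMIs in a cell. The median was 33631 and 30843.5 UMIs in gated cells of the PCSp mice and 38404 and 45626.5 UMIs in those of the PSp mice, against 11138 and 10681.5 UMIs in other epithelial cells of the PCSp mice and 14755.5 and 15477 UMIs in those of the PSp mice. Among epithelial cells with fewer than 5000 UMIs 0.297% met the rule, and among those with 50000 UMIs or more 22.5% did. When every cell was thinned to 3000 UMIs, 62 of 8693 epithelial cells still met it. Thinning left out 2504 and 3643 shallower barcodes of the PCSp mice and 1482 and 1983 of the PSp mice. The part that depth has in the levels given for all gated cells was not tested.

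To see which gated cells resembled each other in genes outside the rule, the epithelial cells were clustered without the 8 genes of the rule. One cluster of 240 cells, called the Psca-rich cluster below, held 104 gated cells, the highest gated share of any cluster (43.3%). It held 44 and 19 gated cells of the PCSp mice and 13 and 28 of the PSp mice. Of the 62 cells that met the rule after thinning, 47 lay in it. The share of gated cells that lay in it was 6.26% with exactly 3 rule genes, 37.1% with 4, 58.1% with 5 and 86.7% (13 of 15 cells) with all 6. It is called so for the Psca level of its gated cells, which was not used to make it. Psca stood at 1294 CPM over all 240 cells of the cluster. Ranked without the rule genes, the leading genes of these 240 cells were Prol1, Pate4, Gm27187, 2310057J18Rik and Pate6. The cluster was singled out by its gated share after the values were seen, so no test is given for it. In its 136 cells that did not meet the rule, genes of the seminal vesicle and ductal list summed to 20.3 and 37.4 CPM in the PCSp mice and 9766 and 9504 CPM in the PSp mice. In its 104 gated cells they summed to 0 and 0 CPM in the PCSp mice and 2.55 and 1.41 CPM in the PSp mice.

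**Figure D1:**
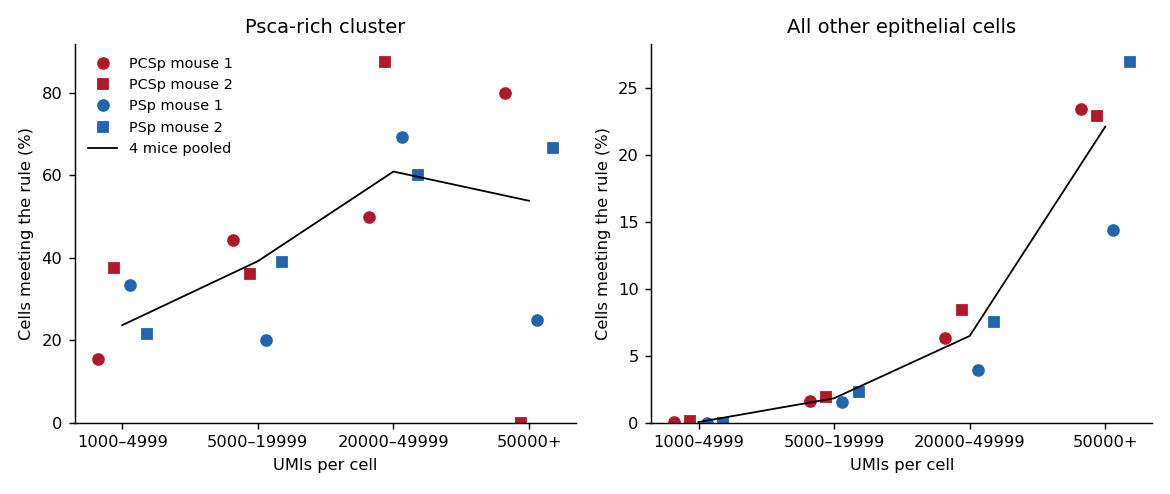
Percentage of epithelial cells that met the rule (y axis) by UMIs per cell (x axis), in the Psca-rich cluster (left) and in all other epithelial cells (right), with 1 point per mouse and a line for the 4 mice pooled; the y axes differ. Outside the cluster the pooled share was 0.0545% below 5000 UMIs and 22.1% at 50000 or more, while inside it 23.7% of the shallowest cells already met the rule; 7 of 13 cells of the cluster in the deepest bin did.

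The remaining 530 gated cells were spread over other clusters of the cells with keratin UMIs. The cluster led by Upk1b, Plat, Atp4a and Mmp7 held 213 of them, with 52 and 42 cells of the PCSp mice and 20 and 99 of the PSp mice. A cluster led by the antimicrobial lectin genes Reg1 and Reg3b held 133, with 43 and 33 cells of the PCSp mice and 21 and 36 of the PSp mice. A cluster led by Ltf and Ccl20 held 66, and one led by interferon-induced genes (Rsad2, Ifit2, Ifit3) held 30. Clusters led by stromal or immune genes held 11 (Apod, Col1a2), 7 (S100a9, Il1b), 4 (Igkc, C1qa), 3 (Ccl5, Gzmb) and 2 (Fabp4, Ccl21a). The cells of those clusters that were not gated count among the other epithelial cells below. Whether such clusters hold mixed barcodes was not tested. Within the Upk1b-led cluster, 21.3% of 1001 cells met the rule. The mixture of clusters differed between mice. PSp mouse 2 had 46.7% of its gated cells in the Upk1b-led cluster, and the other mice had between 20.6% and 31.3%. No barcode was gated in more than 1 library. Pairs of libraries shared 11 to 27 barcodes.

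**Figure D2:**
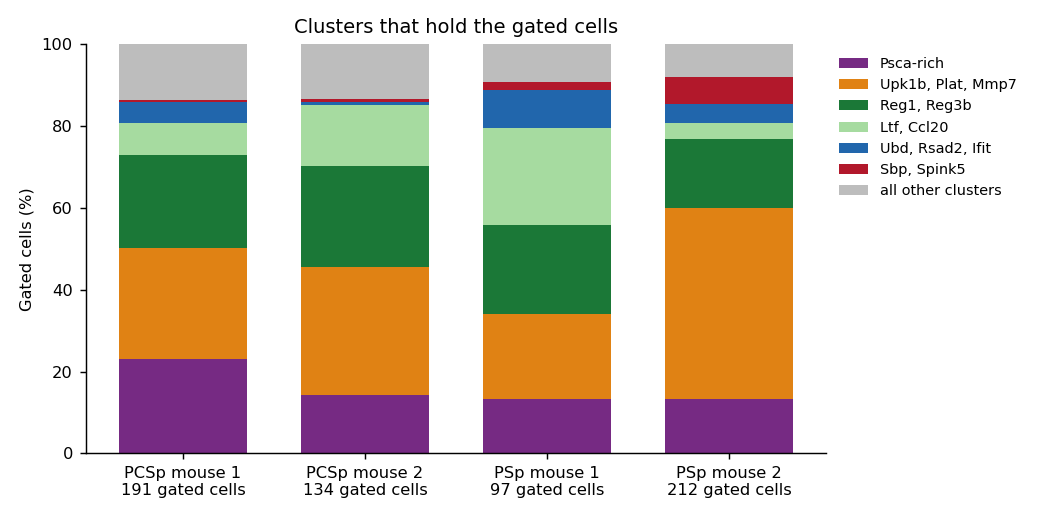
Stacked bars give the percentage of each mouse's gated cells (y axis) in the named clusters of epithelial cells, made without the rule genes; the Psca-rich cluster is named for the Psca level of its gated cells and the others by leading genes. The Psca-rich cluster held 23.0% and 14.2% of gated cells in the PCSp mice and 13.4% and 13.2% in the PSp mice.

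Upk1a carried the rule. It stood at 301 and 265 CPM in the PCSp mice, against 248 and 232 CPM in the PSp mice in all gated cells, and at 57.1 to 84.8 CPM in other epithelial cells. Barcodes with no Krt8 or Krt18 UMI had 1.65 to 4.39 CPM. A Upk1a UMI was found in 31.1% of other epithelial cells but in 1.17% of keratin-negative barcodes (median depths 12363 and 2705 UMIs). Gated cells of the Psca-rich cluster had 803 and 714 CPM in the PCSp mice, against 1182 and 834 CPM in the PSp mice, above the 173 to 235 CPM of gated cells elsewhere in every mouse. Of 9 genes looked up (the 6 rule genes, Upk1b, Upk3a and Upk3b), 5 matched the promoter table, and the 3 uroplakin promoters among them are shown. Of these, Upk1a alone is a gene of the rule. Matches to 4 motifs of factors listed for urothelium, on both strands, are in capitals. The letters searched were AACCNGTT for grainyhead-like factors, AGATAA for GATA factors, GGGNGTGG for KLF factors and TGTTTAC for FOX factors. The sequences run 5' to 3' on the strand of the gene, from RefSeq, build GRCm38.p6, and cover 250 bases before the start and 50 after it.
Upk1a, chr7:30612685-30612984, - strand: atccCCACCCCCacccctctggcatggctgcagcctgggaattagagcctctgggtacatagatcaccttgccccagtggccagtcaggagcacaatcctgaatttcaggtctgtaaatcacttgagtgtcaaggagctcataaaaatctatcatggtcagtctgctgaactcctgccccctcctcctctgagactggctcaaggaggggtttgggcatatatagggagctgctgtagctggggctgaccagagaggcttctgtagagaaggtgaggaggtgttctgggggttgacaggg
Upk3a, chr15:85016891-85017190, + strand: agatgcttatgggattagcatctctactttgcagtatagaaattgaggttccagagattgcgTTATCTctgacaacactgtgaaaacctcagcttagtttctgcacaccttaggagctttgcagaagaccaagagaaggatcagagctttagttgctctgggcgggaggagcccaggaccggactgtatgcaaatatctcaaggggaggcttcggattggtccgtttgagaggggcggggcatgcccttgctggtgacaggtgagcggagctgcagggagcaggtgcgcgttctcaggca
Upk3b, chr5:136038246-136038545, + strand: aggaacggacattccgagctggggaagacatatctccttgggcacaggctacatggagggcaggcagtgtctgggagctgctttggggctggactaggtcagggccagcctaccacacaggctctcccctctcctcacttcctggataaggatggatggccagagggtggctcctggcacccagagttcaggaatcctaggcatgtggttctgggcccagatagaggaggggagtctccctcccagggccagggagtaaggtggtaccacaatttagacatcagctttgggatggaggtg
Upk1a holds 1 KLF match on the opposite strand, Upk3a holds 1 GATA match on the opposite strand and Upk3b holds none of the 4. Among the matched promoters not shown, Isl1 holds 1 GATA match on the gene strand and Mal holds none. No match overlapped another. Of 32851 promoters of this length, 17.6% hold the KLF letters, 11.2% the GATA letters, 3.65% the FOX letters and 2.09% the grainyhead-like letters.

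Psca, the second gene of the most common combination, differed between the gated cells of the cluster and the others in every mouse. It reached 2407 and 2338 CPM in the PCSp mice, against 2319 and 2106 CPM in the PSp mice in the Psca-rich cluster. Gated cells elsewhere had 107 and 108 CPM in the PCSp mice, against 314 and 87.3 CPM in the PSp mice, and other epithelial cells had 1.95 to 6.03 CPM. All 4 mice showed this order. Upk2 was low throughout, at 27.0 and 35.7 CPM in the PCSp mice, against 68.8 and 52.2 CPM in the PSp mice in gated cells of the Psca-rich cluster and 5.09 to 7.95 CPM in gated cells elsewhere. In gated cells outside the cluster 188 Upk2 UMIs were spread over 156 of 530 cells, and the highest cell had 4. Snx31 stood at 52.2 and 55.2 CPM in the PCSp mice, against 73.9 and 53.6 CPM in the PSp mice in the cluster, and at 2.08 to 4.47 CPM in gated cells elsewhere. Mal reached 363 to 497 CPM in the cluster and 118 to 251 CPM elsewhere. Isl1 had 16.2 to 48.4 CPM in the cluster, 0.946 to 1.84 CPM in gated cells elsewhere, and 27.5 to 43.9 CPM in keratin-negative barcodes.

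Urothelial genes that the rule did not use gave a mixed picture. Upk1b, the partner of the uroplakin 3 proteins, had 144 and 149 CPM in the PCSp mice, against 75.9 and 180.5 CPM in the PSp mice in all gated cells and 19.8 to 61.0 CPM in other epithelial cells. The lowest gated mouse lay above the highest value in other epithelium. In gated cells of the Psca-rich cluster it had 123 to 229 CPM and in gated cells elsewhere 63.5 to 178 CPM, so the 2 sets overlapped. Upk3b was 6.49 to 35.7 CPM in gated cells of the Psca-rich cluster and 0.0946 to 0.248 CPM in gated cells elsewhere. Upk3a came from very few cells. In the Psca-rich cluster 90 of its 102 UMIs lay in 1 gated cell of PSp mouse 2, which held 25686 UMIs in all and also had the most Upk1b, Upk3b and Fmo5 UMIs of any gated cell there. Outside the cluster 44 of 530 gated cells had a Upk3a UMI. No Krt20 UMI was found in the 104 gated cells of the cluster, which allows a share of up to 2.88% of cells with a UMI, and 8 of the 530 others had one.

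Among the surface and signalling genes, Shh, the hedgehog ligand made by basal urothelium in mice, had 33.9 and 29.2 CPM in the PCSp mice, against 12.7 and 56.5 CPM in the PSp mice in gated cells of the Psca-rich cluster and 0.615 to 2.48 CPM in gated cells elsewhere. The urea transporter gene Slc14a1 had 21.2 to 36.5 CPM and 1.36 to 5.74 CPM in the same 2 sets. Aqp3, a water and glycerol channel, had 9.74 to 179 CPM in the cluster, with the high end in PSp mouse 2, where 1 cell held 64 of the cluster's 183 UMIs. Krt7, a keratin of simple epithelium, and Krt4, a keratin on the luminal progenitor list, had 464 to 604 CPM and 632 to 1524 CPM there, against 229 to 411 CPM and 401 to 608 CPM in gated cells elsewhere. Transcription factors of urothelial lineage were present in all epithelial sets: Gata3 had 112 to 168 CPM in gated cells of the cluster and 83.4 to 113 CPM in other epithelial cells, and Foxa1 had 97.4 to 149.6 CPM and 126 to 145 CPM. Ovol1, an epithelial repressor of the mesenchymal programme, and Grhl3, a factor of terminal barrier formation, were higher in the cluster (50.8 to 109 CPM and 7.64 to 14.8 CPM) than in gated cells elsewhere (21.8 to 30.7 CPM and 0.757 to 7.79 CPM), with the ranges of Grhl3 touching.

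**Figure D3:**
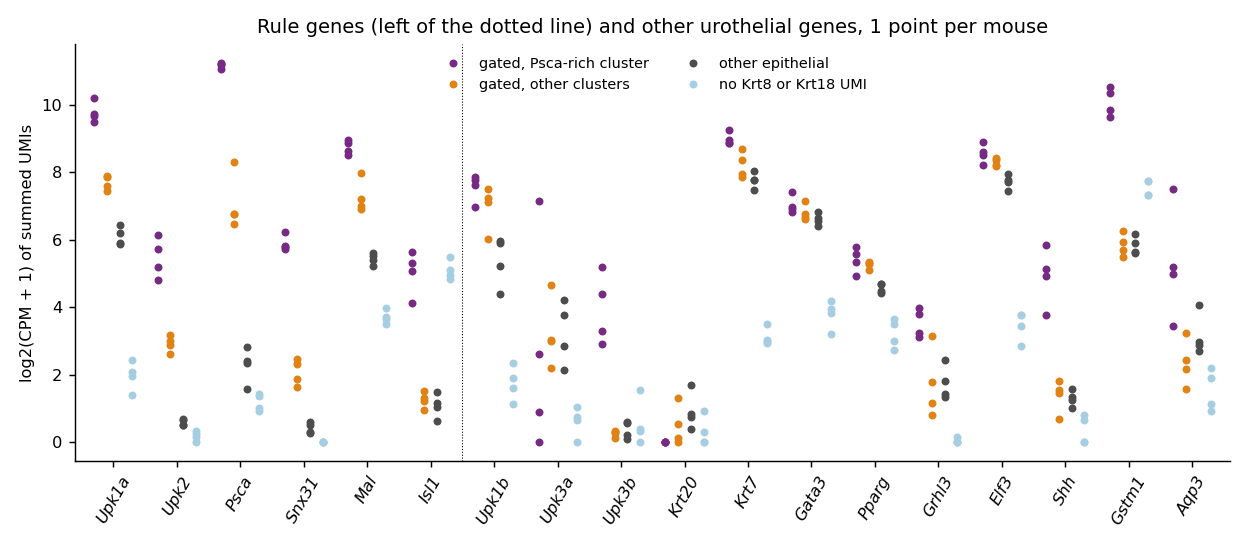
Levels as log2(CPM + 1) of summed UMIs (y axis) for the 6 rule genes (left of the dotted line) and 12 other genes of urothelium, in gated cells of the Psca-rich cluster, other gated cells, other epithelial cells and barcodes with no Krt8 or Krt18 UMI; each point is 1 mouse. Psca, Snx31, Upk2 and Gstm1 separate the gated cells of the cluster from the other gated cells in all 4 mice, while Krt20 is low in every set and Gata3, Pparg and Elf3 lie close together in the 3 epithelial sets. The rule genes helped to choose these cells, and Gstm1 ranked first in this same comparison, so the separation is a description with no test.

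Among genes outside the rule, the gene whose smallest ratio across mice was highest, in gated cells of the Psca-rich cluster over gated cells elsewhere, was Gstm1, a glutathione transferase, at 789 to 1481 CPM across mice, against 43.7 to 76.0 CPM. The cyclin gene Ccnd2 stood at 203 to 410.2 CPM across mice, against 18.7 to 44.1 CPM, and the heat-shock gene Hspa1a at 362 to 643 CPM across mice, against 85.1 to 113 CPM. Periplakin (Ppl), a cornified envelope protein, had 136 to 201 CPM across mice, against 31.6 to 55.1 CPM, and Hopx 110.4 to 242 CPM across mice, against 33.7 to 42.9 CPM. The genes lowest in the cluster included several that lead other clusters. Reg3b had 5.10 to 45.5 CPM across mice, against 2011 to 8505 CPM. Onecut2, a transcription factor, had 0 to 6.96 CPM across mice, against 120.2 to 256 CPM. Because clusters were made from these genes, the values describe the cluster and carry no test. Hoxb13, a prostate and hindgut homeobox gene, was 7.64 to 32.5 CPM in gated cells of the cluster and 59.8 to 92.4 CPM in the other gated cells. The prostate secretory genes Pbsn and Msmb were under 1 CPM in both sets and in the other epithelium.

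All 634 gated cells together were set against other epithelial cells, and genes outside the rule were ranked by the ratio of their levels. The pore-forming gasdermin gene Gsdmc4 had 183 to 205 CPM across mice, against 35.9 to 43.0 CPM in other epithelial cells. The mucus protein gene Fcgbp had 125 to 188 CPM across mice, against 35.3 to 47.4 CPM. The flagella-binding protein gene Lypd8 had 308 to 562 CPM across mice, against 90.3 to 148 CPM. The tetraspanin gene Tspan8 had 942 to 1063 CPM across mice, against 392 to 479 CPM. These 4 were among the 20 leading genes, and the other 16 were Arl14, Gsdmc2, Sult1c2, Gsdmc3, Bex1, Reg3b, Smim6, Upk1b, Nipal1, Reg3g, Tmem45b, Pllp, Gm15848, Gstm1, Sdcbp2 and Pdzk1ip1. Pooled over mice, Gstm1 had 1115 CPM in gated cells of the Psca-rich cluster and 60.3 CPM in those elsewhere. Other epithelial cells had 47.2 to 70.6 CPM of Gstm1 across mice, a range that holds the value of gated cells elsewhere. Lowest in gated cells were Krt5, Krt14 and Krt17 of basal cells, the fatty acid carrier gene Fabp5 and the myeloid gene Lyz2. Krt14 had 48.3 to 116 CPM across mice, against 410.4 to 644 CPM, and Lyz2 3.41 to 16.6 CPM across mice, against 62.0 to 133 CPM. The 5 basal markers (Krt5, Krt14, Krt15, Trp63 and Col17a1) summed to 1361 to 2643 CPM across mice, against 2856 to 4053 CPM. In gated cells of the Psca-rich cluster they summed to 2904 and 4173 CPM in the PCSp mice and 6431 and 3680 CPM in the PSp mice. Other epithelial cells had 3348 and 4053 CPM (PCSp mice) and 3966 and 2856 CPM (PSp mice). The median depth of gated cells was above that of other epithelial cells in every mouse, as given above. The Upk1b-led and the Reg1- and Reg3b-led clusters held 213 and 133 of the 634 gated cells. They held 1001 and 860 of the 12353 epithelial cells. Upk1b and Arl14 lead the first, and Reg3b and Lypd8 the second. Pooled over mice, Gsdmc2, Smim6, Upk1b, Nipal1, Tmem45b, Pllp, Gstm1 and Pdzk1ip1 were higher in gated cells of the Psca-rich cluster than in those elsewhere. The others of the 20 were lower there, among them Reg3b (28.1 against 4310 CPM). The part of depth and of cluster mixture in these levels was not tested.

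Cells just inside the rule are set here beside those just outside it. The 479 cells with exactly 3 rule genes had 201 CPM of Upk1a, 83.4 CPM of Psca and 1359 CPM of Krt15. The 1524 epithelial cells with exactly 2 had 171 CPM of Upk1a, 2.96 CPM of Psca and 1127 CPM of Krt15. Outside the rule, Upk1b had 135 CPM just inside and 82.4 CPM just outside, and Wfdc2 had 4381 and 4117 CPM. Of the cells just inside, 6.26% lay in the Psca-rich cluster, and of those just outside, 1.44%. The 69 gated cells with only 2 UMIs of Upk1a and Upk2 together had 48.7 CPM of Upk1a, and the 54 cells left out with 1 such UMI had 22.7 CPM. Upk1a and Psca are rule genes, so the rule itself bears on their levels on each side of its edge. Their differences there are no test.

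The share of gated cells did not separate the genotypes. It was 5.25% and 4.26% of epithelial cells in the PCSp mice, against 3.78% and 7.08% in the PSp mice, with exact Clopper-Pearson 95% intervals of 4.55% to 6.02% and 3.58% to 5.02% in the PCSp mice and 3.07% to 4.59% and 6.18% to 8.05% in the PSp mice. The intervals cover counting error only. The means were 4.75% ± 0.70 in PCSp mice and 5.43% ± 2.33 in PSp mice (SD, n = 2 each), a log2 ratio of -0.19, with a two-sided exact permutation p of 1. With 2 mice a group, 0.333 is the smallest p the test can give. PSp mouse 2 decides the direction: without it the log2 ratio was 0.33. With at least 4 rule genes the share was 1.54% and 1.08% in the PCSp mice and 0.779% and 1.50% in the PSp mice (log2 ratio 0.20), and after thinning to 3000 UMIs it was 0.955% and 0.524% in the PCSp mice and 0.548% and 0.754% in the PSp mice (log2 ratio 0.18).

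Chd1, which lies at chr17:15704967-15772610, is the gene the genotypes differ in. In gated cells it had 54.4 and 51.1 CPM in the PCSp mice, against 80.4 and 71.3 CPM in the PSp mice, with both PCSp mice below both PSp mice (log2 fold change -0.49 ± 0.11 SE, edgeR adjusted p = 0.331). That difference did not pass, and it did with no filter on low counts (log2 fold change -0.51, edgeR adjusted p = 0.0132). A 3' tag need not lie in the part that is deleted, so residual Chd1 UMIs do not check the labels. In other epithelial cells Chd1 had 61.8 and 56.6 CPM in the PCSp mice, against 91.4 and 77.9 CPM in the PSp mice, and the difference of the genotype effect between gated and other epithelial cells was 0.05 ± 0.10 SE (log2, edgeR adjusted p = 1). Spop had 126 and 146 CPM in the PCSp mice, against 130.1 and 123 CPM in the PSp mice. Srebf2, the regulator of cholesterol synthesis genes, had 35.6 and 31.9 CPM in the PCSp mice, against 35.9 and 29.7 CPM in the PSp mice. Neither gene passed, and the groups overlapped for both.

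Between genotypes, edgeR's quasi-likelihood test on counts summed per mouse called 8 of 12142 genes in gated cells at an adjusted p under 0.05, which is 0.0659% of those tested: 3 were higher in PCSp (0.0247%) and 5 lower (0.0412%). At an unadjusted p under 0.05 there were 970. With 0.0659% of all genes called, a count of 0 in a short gene list says little about its genes. The 8 are the uncharacterized gene Gm42031, Reg3b and Wdfy1 among the higher, and Spink5, 2610528A11Rik, Rgs4, Trim30d and Oas2 among the lower. The labels give no litter or day, so an effect of either cannot be told apart from genotype. The p-values rest on the spread between these 4 animals, moderated by that of all genes (prior degrees of freedom 5.04, residual 2). DESeq2 called 70, and with the 104 cells of the Psca-rich cluster left out edgeR called 1 gene, Gm42031. With at least 4 rule genes it called 2, Gm42031 and Apod. Leaving out 1 mouse gave 11 calls without PCSp mouse 1, 23 without PCSp mouse 2, 159 without PSp mouse 1 and 132 without PSp mouse 2.

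Gm42031, at chr8:85125872-85132289, had 239 and 192 CPM in the PCSp mice, against 28.5 and 24.5 CPM in the PSp mice, with no overlap (log2 fold change 3.06 ± 0.14 SE, edgeR adjusted p = 0.00129). The lectin gene Reg3b had 5534 and 7968 CPM in the PCSp mice, against 1862 and 1909 CPM in the PSp mice (log2 fold change 1.87 ± 0.19 SE, edgeR adjusted p = 0.0409). Of its gated UMIs 95.6% lay in the Reg1- and Reg3b-led cluster. That cluster held 22.5% and 24.6% of gated cells in the PCSp mice and 21.6% and 17.0% in the PSp mice. The part of this mixture in the Reg3b call was not tested. Within the Upk1b-led cluster alone Reg3b did not pass (log2 fold change 1.09 ± 0.42 SE, edgeR adjusted p = 0.742). Wdfy1, an endosomal adaptor gene at chr1:79702262-79776143, had 28.0 and 37.3 CPM in the PCSp mice, against 9.30 and 8.96 CPM in the PSp mice (log2 fold change 1.85 ± 0.19 SE, edgeR adjusted p = 0.0409). All 3 were higher in PCSp in the other epithelial cells too: Gm42031 had 220.0 and 141 CPM in the PCSp mice, against 28.0 and 26.5 CPM in the PSp mice there. Hpgd, which degrades prostaglandins, and Ccdc148 complete the 5 named by rule in this direction and did not pass over all gated cells. Within the Upk1b-led cluster alone Hpgd passed (log2 fold change 1.30 ± 0.18 SE, edgeR adjusted p = 0.0290). Ccdc148 did not pass there (log2 fold change 0.87 ± 0.23 SE, edgeR adjusted p = 0.394). Hpgd had 92.2 and 103 CPM in the PCSp mice, against 54.4 and 45.2 CPM in the PSp mice (log2 fold change 1.00 ± 0.13 SE, edgeR adjusted p = 0.0832), and Ccdc148 75.8 and 86.7 CPM in the PCSp mice, against 45.2 and 46.3 CPM in the PSp mice (log2 fold change 0.85 ± 0.12 SE, edgeR adjusted p = 0.122).

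Spink5, a serine protease inhibitor gene of stratified epithelium, had 7.60 and 4.12 CPM in the PCSp mice, against 41.5 and 59.2 CPM in the PSp mice (log2 fold change -3.02 ± 0.28 SE, edgeR adjusted p = 0.0409). Its UMIs came from 14 and 9 gated cells in the PCSp mice and 5 and 32 in the PSp mice, and 1 cell held 15.8% of them. In other epithelial cells the groups overlapped, with 146 and 103 CPM in the PCSp mice, against 37.7 and 196 CPM in the PSp mice. 2610528A11Rik had 14.9 and 8.65 CPM in the PCSp mice, against 72.7 and 81.8 CPM in the PSp mice (log2 fold change -2.64 ± 0.22 SE, edgeR adjusted p = 0.0338). Rgs4, a regulator of G-protein signalling, had 2.93 and 2.47 CPM in the PCSp mice, against 14.8 and 14.5 CPM in the PSp mice (log2 fold change -2.38 ± 0.23 SE, edgeR adjusted p = 0.0409). The cluster led by Sbp and Spink5, which had the most Rgs4 UMIs of gated cells, held 1 and 1 gated cells of the PCSp mice and 2 and 14 of the PSp mice. The part of this mixture in these 3 calls was not tested. Lgals3bp, a secreted glycoprotein gene, and H2-Q7, a nonclassical MHC class I gene, were named by rule in this direction and did not pass over all gated cells. Lgals3bp had 132 and 137 CPM in the PCSp mice, against 269.8 and 246 CPM in the PSp mice (log2 fold change -0.91 ± 0.10 SE, edgeR adjusted p = 0.0535). Within the Upk1b-led cluster alone Spink5 and 2610528A11Rik had log2 fold changes of -3.45 ± 1.00 and -2.41 ± 0.36 (SE). There Spink5 did not pass (edgeR adjusted p = 0.497) and 2610528A11Rik did (edgeR adjusted p = 0.0334). H2-Q7 passed there too (log2 fold change -1.28 ± 0.16 SE, edgeR adjusted p = 0.0285). In that cluster 12 of 9518 genes passed, 4 of them among the 8.

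**Figure D4:**
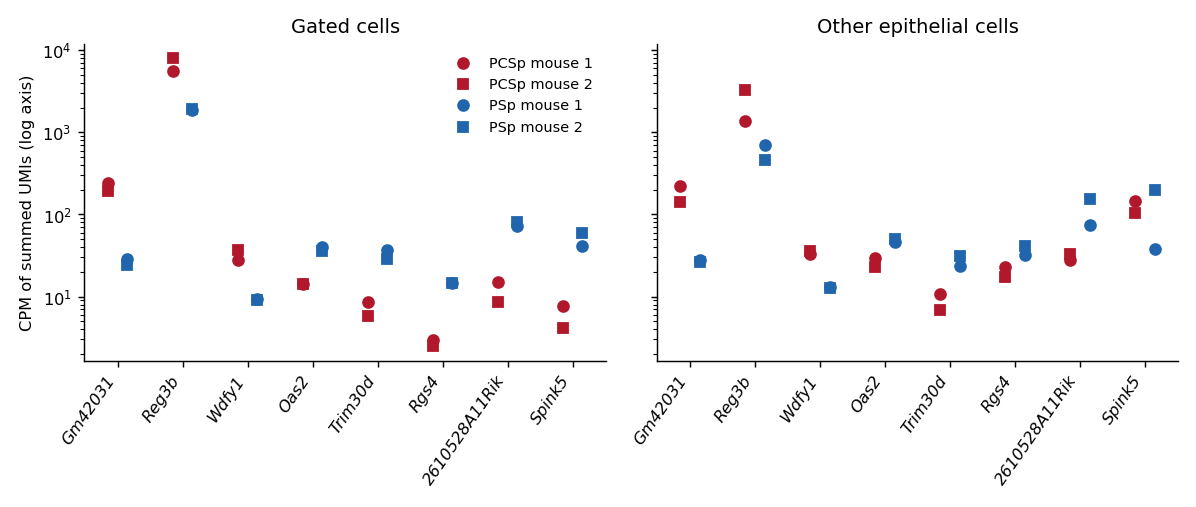
CPM of summed UMIs (log y axis) of the 8 genes called between genotypes in gated cells, in gated cells (left) and in other epithelial cells (right); each point is 1 mouse, PCSp left of PSp. In gated cells no gene's groups overlap, while in other epithelial cells Spink5 overlaps, at 37.7 CPM in PSp mouse 1.

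Genes of the interferon response had lower values in PCSp gated cells, and 1 of those listed passed. Oas2, a sensor of double-stranded RNA, had 14.1 and 14.2 CPM in the PCSp mice, against 40.4 and 35.6 CPM in the PSp mice and passed (log2 fold change -1.40 ± 0.14 SE, edgeR adjusted p = 0.0409). Trim30d passed as well, with 8.47 and 5.77 CPM in the PCSp mice, against 37.4 and 28.3 CPM in the PSp mice (log2 fold change -2.12 ± 0.22 SE, edgeR adjusted p = 0.0409). Of 22 listed genes of the interferon response 21 were tested, all 21 had a negative log2 fold change and 1, Oas2, passed; the median was -1.02, beside -0.0043 over all genes tested. For 19 of the 21 the groups did not overlap, PCSp being the lower, beside 22.8% of all genes tested. Ifit3, which binds the cap of foreign RNA as part of a complex, had 143 and 89.2 CPM in the PCSp mice, against 454 and 338 CPM in the PSp mice (log2 fold change -1.74 ± 0.22 SE, edgeR adjusted p = 0.0832), and Irf7, the master regulator of the type I response, had 194 and 169 CPM in the PCSp mice, against 393 and 331 CPM in the PSp mice (log2 fold change -0.97 ± 0.12 SE, edgeR adjusted p = 0.0797). Neither passed. In the other epithelial cells all 21 were lower in PCSp too, with a median log2 ratio (CPM + 5) of -0.68, against -0.98 on the same scale in gated cells, and 0 of the 21 passed the test of a difference between the classes. Gated cells in the interferon-led cluster numbered 10 and 1 in the PCSp mice and 9 and 10 in the PSp mice, and the part of this in the list's values was not tested.

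Genes of antigen presentation split by class. All 11 genes of MHC class I presentation had lower values in PCSp, with no overlap for any of them beside 22.8% of all genes tested, and 0 passed (median log2 fold change -0.48). H2-K1, a class I heavy chain, had 1244 and 1267 CPM in the PCSp mice, against 2178 and 1903 CPM in the PSp mice (log2 fold change -0.67 ± 0.12 SE, edgeR adjusted p = 0.181). B2m, its light chain, had 802 and 739 CPM in the PCSp mice, against 1656 and 1177 CPM in the PSp mice (log2 fold change -0.85 ± 0.16 SE, edgeR adjusted p = 0.244). The 6 tested genes of class II presentation were all higher in PCSp, 5 of them with no overlap beside 16.5% of all genes tested, with 0 passing (median 0.63). H2-Eb1, a class II chain, had 18.7 and 17.3 CPM in the PCSp mice, against 6.83 and 10.5 CPM in the PSp mice (log2 fold change 1.04 ± 0.23 SE, edgeR adjusted p = 0.325), and other epithelial cells had more, at 77.5 and 46.6 CPM in the PCSp mice, against 40.5 and 50.5 CPM in the PSp mice. Beside these, the 4 macrophage markers summed to 43.4 and 23.9 CPM in gated cells of the PCSp mice and 4.93 and 11.3 CPM in those of the PSp mice, 1 of the 4 reaching 10 CPM and Adgre1 under 1 CPM. The 4 immune markers summed to 54.1 and 33.0 CPM in the PCSp mice and 12.5 and 21.9 CPM in the PSp mice. In other epithelial cells the macrophage markers summed to 143 and 91.1 CPM (PCSp mice) and 90.4 and 117 CPM (PSp mice). The immune markers summed there to 276 and 206 CPM (PCSp mice) and 138 and 158 CPM (PSp mice). The part of such transcripts in the class II values of either set of cells was not tested. In other epithelial cells all 11 class I genes were lower in PCSp too. Their median log2 ratio (CPM + 5) was -0.38 there, against -0.49 on the same scale in gated cells. Of the 6 class II genes 0 were lower in PCSp in other epithelial cells, with a median of 0.35, against 0.45 in gated cells.

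Genes of energy metabolism were mostly lower in PCSp and none passed over all gated cells. Of 19 tested genes of hypoxia and glycolysis 17 were lower (median log2 fold change -0.31), with no overlap and PCSp lower for 16, beside 22.8% of all genes tested. Pfkp, a phosphofructokinase, had 19.5 and 15.5 CPM in the PCSp mice, against 30.5 and 27.9 CPM in the PSp mice (log2 fold change -0.70 ± 0.15 SE, edgeR adjusted p = 0.325). Of 13 mitochondrially encoded genes 10 were lower (median -0.39), and mt-Nd3 had 605 and 484 CPM in the PCSp mice, against 921 and 1243 CPM in the PSp mice (log2 fold change -0.97 ± 0.18 SE, edgeR adjusted p = 0.217). The median mitochondrial percentage of gated cells was 5.09% and 4.71% in the PCSp mice and 6.26% and 6.96% in the PSp mice, and its part in these values was not tested. Within the Upk1b-led cluster alone mt-Nd3 passed (log2 fold change -1.09 ± 0.17 SE, edgeR adjusted p = 0.0383). Pfkp did not pass there (edgeR adjusted p = 0.483). In other epithelial cells the 2 lists had median log2 ratios (CPM + 5) of -0.21 and -0.32.

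Of 20 genes of cholesterol biosynthesis 14 were higher in PCSp gated cells and 6 lower, with 0 passing and a median log2 fold change of 0.16. Idi1 had 36.5 and 37.9 CPM in the PCSp mice, against 27.3 and 20.3 CPM in the PSp mice (log2 fold change 0.69 ± 0.16 SE, edgeR adjusted p = 0.366). Idi1 makes the isoprenoid building block of sterols, and its groups did not overlap, whereas Cyp51, a sterol demethylase, had 78.7 and 106 CPM in the PCSp mice, against 103 and 45.8 CPM in the PSp mice and did overlap. Of 13 genes of SREBP control and cholesterol uptake 7 were higher and 6 lower, with a median of 0.01; Scap, the escort of SREBP, had 16.3 and 15.5 CPM in the PCSp mice, against 21.1 and 22.8 CPM in the PSp mice (log2 fold change -0.45 ± 0.14 SE, edgeR adjusted p = 0.540). Of 22 tested cell-cycle genes 14 were higher and 8 lower (median 0.55), at a median level of 4.18 CPM, and 0 passed. In other epithelial cells all 22 were lower in PCSp, with a median log2 ratio (CPM + 5) of -0.24, against 0.09 in gated cells. The cycling cluster, led by Ube2c and Mki67, held 3 and 2 gated cells of the PCSp mice and 1 and 1 of the PSp mice. Cenpf, a kinetochore protein gene, had 6.84 and 10.1 CPM in the PCSp mice, against 3.98 and 1.51 CPM in the PSp mice (log2 fold change 1.76 ± 0.46 SE, edgeR adjusted p = 0.465).

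The urothelial genes outside the rule gave 0 calls between genotypes in gated cells, beside 0.0659% of all genes tested. Lists this short would mostly hold 0 at that share. Leaving out the rule genes, of 8 tested genes of uroplakins and plaque transport 5 were higher in PCSp and 3 lower (median log2 fold change 0.06). The 6 rule genes chose the cells, so no test of them between genotypes is given. Upk1b, whose values in each mouse stand above, had overlapping groups (log2 fold change 0.19 ± 0.34 SE, edgeR adjusted p = 0.922). Of 18 urothelial transcription factors 7 were higher and 11 lower (median -0.04), and Gata3 had 107 and 98.5 CPM in the PCSp mice, against 106 and 138 CPM in the PSp mice (log2 fold change -0.23 ± 0.15 SE, edgeR adjusted p = 0.745). The lists of keratins and surface proteins, barrier and junction proteins, channels, lipid and retinoid handling, and detoxification had medians between -0.15 and 0.03. Of 13 genes of basal and intermediate urothelium 8 were higher and 5 lower. Krt14, a basal keratin, had 112 and 116 CPM in the PCSp mice, against 75.3 and 48.3 CPM in the PSp mice (log2 fold change 0.92 ± 0.19 SE, edgeR adjusted p = 0.287), and the adhesion receptor gene Cd44 had 212 and 231 CPM in the PCSp mice, against 317 and 295 CPM in the PSp mice (log2 fold change -0.44 ± 0.10 SE, edgeR adjusted p = 0.373). The 6 tested prostate luminal identity genes were all lower in PCSp with 0 passing, and Hoxb13 had 78.6 and 58.1 CPM in the PCSp mice, against 70.2 and 87.5 CPM in the PSp mice, with overlap. Of 9 luminal progenitor genes outside the rule 7 were lower and 0 passed, among them Wfdc2, a secreted protease inhibitor gene, with 3732 and 4119 CPM in the PCSp mice, against 5142 and 5069.7 CPM in the PSp mice (log2 fold change -0.35 ± 0.12 SE, edgeR adjusted p = 0.579).

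The remaining lists gave 0 calls between genotypes in gated cells, beside 0.0659% of all genes tested. Of 15 genes of p53 targets and senescence 6 were higher and 9 lower in PCSp (median log2 fold change -0.15), and Cdkn2a, the locus of the Ink4a and Arf tumour suppressors, had 17.9 and 16.9 CPM in the PCSp mice, against 28.5 and 42.2 CPM in the PSp mice (log2 fold change -1.02 ± 0.21 SE, edgeR adjusted p = 0.285). Of 12 dissociation stress genes 8 were higher and 4 lower (median 0.06). Of 14 tested cytokine and acute-phase genes 6 were higher and 8 lower (median -0.05). Of 10 tested posterior Hox genes 6 were higher and 4 lower (median 0.15), and Hoxa11 had 13.1 and 16.1 CPM in the PCSp mice, against 8.92 and 9.58 CPM in the PSp mice (log2 fold change 0.66 ± 0.20 SE, edgeR adjusted p = 0.527).

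**Figure D5:**
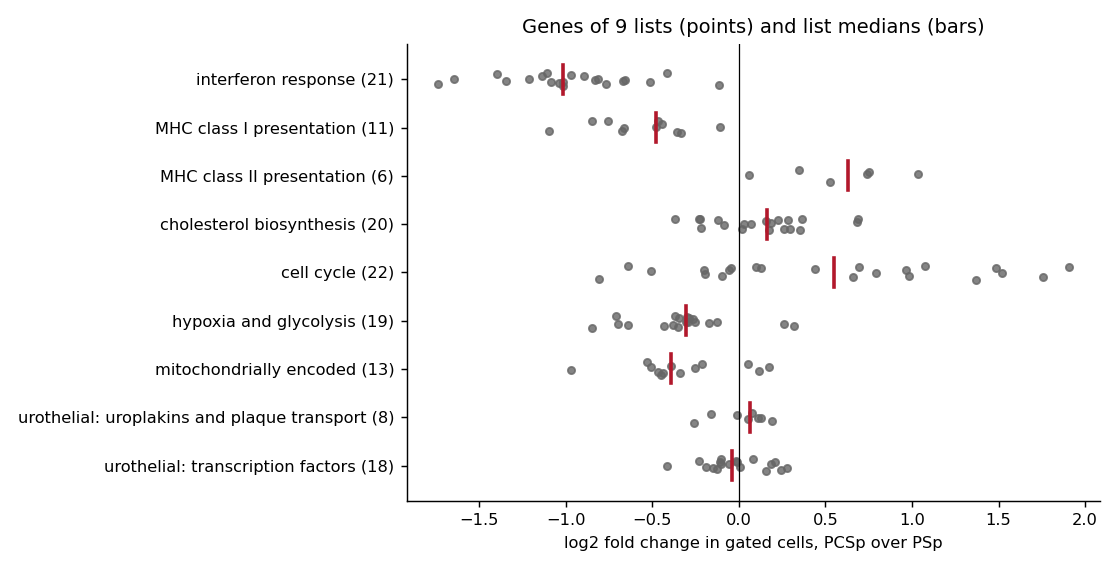
Log2 fold changes of PCSp over PSp in gated cells (x axis, edgeR) for the tested genes of 9 lists without the rule genes, 1 point per gene, with the list median as a vertical bar; numbers in brackets count the genes tested and the vertical scatter within a list has no meaning. All points of the interferon and MHC class I lists lie below 0 and all of the class II list above it, while the uroplakin and transcription factor lists straddle 0; of the genes drawn, Oas2 alone passed.

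The genotype effect was tested for a difference between gated and other epithelial cells in a model with mouse, class and their interaction with genotype. It called 9 of 15823 genes (0.0569%), and 621 had an unadjusted p under 0.05. Without PCSp mouse 1 it called 1 gene, without PCSp mouse 2 it called 27, and without PSp mouse 1 or 2 it called 72 or 48. Most of the 9 rested on very few cells. The 4 haemoglobin genes Hbb-bs, Hba-a1, Hba-a2 and Hbb-bt had between 93.7% and 99.1% of their gated UMIs in a single cell, and in gated cells Hbb-bs had 0.869 and 0.618 CPM in the PCSp mice, against 0.190 and 67.3 CPM in the PSp mice. Saa1, an acute-phase protein gene, had 77.8% of its 126 gated UMIs in 1 cell, and Pyy, a gut peptide hormone gene, had 57.9% of its 478. C1qa, a macrophage complement gene, had 19.0 and 11.5 CPM in the PCSp mice, against 1.71 and 4.52 CPM in the PSp mice, with 32.0% of its UMIs in 1 cell. The cluster led by Igkc and C1qa, with 4 gated cells, held 40.5% of its gated UMIs. Prol1, a secretory gene, had 14 gated UMIs in all. In other epithelial cells it had 2.54 and 0.457 CPM in the PCSp mice, against 274 and 0.0513 CPM in the PSp mice. The haemoglobin genes, like the Gsdmc and class I genes above, have near copies that counting can split, so values of single copies are uncertain. Mki67, a marker of proliferation, had 6.84 and 6.59 CPM in the PCSp mice, against 2.28 and 1.51 CPM in the PSp mice in gated cells, with no overlap and 64.5% of UMIs in the cycling cluster, and 17.6 and 19.6 CPM in the PCSp mice, against 27.3 and 23.9 CPM in the PSp mice in other epithelial cells.

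Of the genes with at least 20 CPM in gated cells, the smallest p-values of this difference belonged to Krt14, Dmkn and Hspa1a in the positive direction and to Hp, Mmp7 and Spink5 in the negative one, and none passed. Krt14 differed by 0.68 ± 0.10 SE on the log2 scale (edgeR adjusted p = 0.113), and in other epithelial cells it had 621 and 639.8 CPM in the PCSp mice, against 644 and 410.4 CPM in the PSp mice. Hp, the haptoglobin gene, differed by -1.43 ± 0.19 SE (edgeR adjusted p = 0.0556), with 27.6 and 44.7 CPM in the PCSp mice, against 46.3 and 53.9 CPM in the PSp mice in gated cells.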

How the data were processed

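Single-cell libraries of 4 prostate tumours, 1 per mouse, were made with 10x 3' V3 chemistry after digestion with collagenase A and trypsin and red cell lysis, with no sort, per the labels' protocols. The authors deposited raw UMI counts per gene and barcode; Cell Ranger 6.1.2 and mm10 are named in the submitters' processing notes. Barcodes with at least 1000 UMIs and at most 20% mitochondrial UMIs were kept. Scrublet, run through scanpy 1.11.5, made 0 automatic calls in every library, so it had not worked; no doublets were removed, and its highest scores served only in an alternative. Of gated cells 10.4% had such a score, against 7.55% of other epithelial cells, and 4.57% of gated cells had a UMI of the leukocyte gene Ptprc. Epithelial cells were clustered by the Leiden method (2000 variable genes, 30 components, 15 neighbours, resolution 1) without the 8 rule genes. Counts summed per mouse were tested with edgeR 4.0.16 (R 4.3.3; quasi-likelihood, TMM, filterByExpr, Benjamini-Hochberg over all genes, threshold 0.05); DESeq2 1.42.0 was an alternative. Summed gated cells held 9210516 and 4853233 UMIs in the PCSp mice and 5271148 and 11276805 in the PSp mice. Both fits have 2 residual degrees of freedom. The tests were checked on simulated counts with planted changes, drawn from the fitted spread of each gene. Those counts held no difference in cluster mixture between mice, so the check does not cover it.

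The members, the gene lists and the comparisons were chosen with earlier results of these data known. Between genotypes, genes were named if they passed, averaged 20 CPM or more and did not overlap between groups, filled to 5 a direction by the smallest p, with the 3 of smallest p from each list; Rgs4 and Trim30d, which passed below that level, were named after their values were seen. A few genes and 1 allele are not reported here. For gated over other epithelial cells the 20 highest and 10 lowest of the log2 ratio of CPM + 5 in the least extreme mouse were taken, among genes with at least 50 CPM. The ratio in gated cells of the Psca-rich cluster over other gated cells used the same steps.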

Additional observations from a re-analysis of the deposited data

Results flagged for a closer look

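The difference of the genotype effect between gated and other epithelial cells passed for 9 genes (edgeR, log2 scale, PCSp over PSp in gated cells minus the same in other epithelial cells), and each is given here because its effect differed between these classes. The haemoglobin genes had differences of -7.60 (Hbb-bs), -8.78 (Hba-a1), -5.62 (Hba-a2) and -7.82 (Hbb-bt), with 93.7% to 99.1% of the gated UMIs of each in 1 cell. Saa1 differed by -2.79, with 77.8% of its gated UMIs in 1 cell. Pyy differed by 3.53, with 57.9% in 1 cell. C1qa differed by 2.06, with 32.0% in 1 cell. Mki67 differed by 2.43, with 64.5% of its gated UMIs in the cycling cluster, which held 7 gated cells. Prol1 differed by 5.48 on 14 gated UMIs. In other epithelial cells it had 274 CPM in PSp mouse 1 and 0.0513 to 2.54 CPM in the other mice.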

How the results depend on the processing

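The log2 ratio of gated shares (-0.19) turned to 0.20 with at least 4 rule genes and to 0.18 after thinning to 3000 UMIs, and it ran between -0.57 and 0.33 when each mouse was left out. The 8 genes called between genotypes became 404 with no filter on low counts, 70 with DESeq2, 2 with at least 4 rule genes, and 1 without the cluster of highest gated share, an alternative chosen after seeing the data. Leaving out a mouse gave 11 to 159 calls; the lone mouse is then assumed to vary like the other group. The 9 class differences became 165 with no filter and 1 to 72 when a mouse was left out. Chd1 was -0.51 with no filter (edgeR adjusted p = 0.0132) and between -0.57 and -0.42 when a mouse was left out. The cause of these changes was not tested. Directions turned for genes that did not pass. With at least 4 rule genes Hp was 2.12, Srebf2 -0.38, Hmgcs1 -0.24 and Bnip3 0.27. In the cluster with most gated cells Hp was 0.46, Spop -0.00014 and Cdkn2a 0.052. When a mouse was left out the range was -0.00748 to 0.26 for Spop, -0.040 to 0.20 for Srebf2, -0.40 to 0.013 for Hoxb13, -0.63 to 0.18 for Fkbp5 and -0.90 to 0.23 for Stard4. Without the cluster of highest gated share Hspa1a was -0.11. The Chd1 class difference was -0.033 against other epithelial cells with no Krt5 or Krt14 UMI. No paired analysis was possible because the labels give the genotypes no shared litter, batch or replicate numbers.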
